A study of Homo sapiens and Mus musculus with 33 samples.

Results

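Long 3' untranslated regions (3' UTRs) of mouse naive T cells were followed here by metabolic RNA labelling. A long 3' UTR was an annotated region of at least 3000 bases, off the mitochondrial chromosome, with at least 300 reads summed over 8 libraries. Where annotated regions overlapped on 1 strand, the one with the most reads stood for the group. The rule gave 1635 long 3' UTRs, 15.7% of the 10409 regions that passed the read minimum out of 122084 groups of overlapping regions. They were set against the 2143 regions under 300 bases that passed the same minimum, called short 3' UTRs below. A further 2707 long regions had fewer than 300 reads, and 210 of these had none.

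The 3' UTR is the stretch of a messenger RNA between its stop codon and its poly(A) tail. It carries sites for microRNAs and RNA-binding proteins that set how long the message lasts and how well it is translated, and long 3' UTRs have more room for such sites. T cells are known to change 3' UTR length on activation, by the choice of the polyadenylation site. In SLAM-seq, cells take up 4-thiouridine (4sU), a uridine analogue, into RNA made during the labelling period. Iodoacetamide alkylates the incorporated 4sU, which is then copied as if it were C, so that reads with a T-to-C conversion mark RNA made during labelling. The labelled share of a 3' UTR is the percent of its reads with a conversion, and it is larger for messages that turn over faster, for a given labelling time and dose.

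The cells are labelled as T lymphocytes of mouse lymph nodes, untreated apart from 4sU as far as the labels say, with no strain or age given. There were 2 libraries each of control, 250 µM, 500 µM and 1 mM 4sU. All 8 titles, control included, say 4sU labelling, and neither the control dose nor the labelling time was given in the sources used here. The extracted RNA was treated with 10 mM iodoacetamide and made into 3' end libraries, so that each region is read mostly near its end. The labels do not say that 2 libraries of a dose came from separate animals or cultures, so p-values here measure only how these libraries vary, and that variation may be technical. Regions carry transcript identifiers and no gene names, so T cell markers and named genes were not analysed here, and regions are given by their position.

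The libraries held 10512102 to 15004515 reads, of which 551404 to 850651 fell in the long 3' UTRs. Each of the 1635 had at least 1 read in every library. Library 1 of 1 mM stood apart. Its reads in long 3' UTRs covered 19.0 T each against 23.0 to 24.1 in the other 7 libraries, and mitochondrial regions took 7.53% of its counted reads against 2.62% to 4.94%. The 2 control libraries also differed more from each other than other pairs did, with a chi-square per degree of freedom of 33.5, against 27.8 for 1 mM, 4.07 for 250 µM and 3.80 for 500 µM.

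The annotation is uneven between strands, which bears on what the regions are. Of its 223314 regions, 80.7% lay on the plus strand, although mouse genes lie about evenly on both. Of the long 3' UTRs, 1018 (62.3%) were on the plus strand, and of the short ones 63.0%. Whether some regions belong to transcripts without a coding sequence was not tested. The values for minus-strand regions alone are given beside the first result below.

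Long 3' UTRs had a higher labelled share than short ones at each dose, in 6 of 6 labelled libraries. Their median labelled share was 36.5% and 38.8% in the 250 µM libraries, 46.5% and 49.0% at 500 µM, and 46.7% and 53.6% at 1 mM. Short 3' UTRs had medians of 21.6% and 22.8%, 27.8% and 28.9%, and 30.9% and 32.8%. As means over libraries, the long 3' UTRs reached 37.6% ± 1.66, 47.8% ± 1.73 and 50.1% ± 4.91 (SD, n = 2 libraries), against 22.2% ± 0.889, 28.4% ± 0.821 and 31.9% ± 1.33 for the short ones. No library of the long set overlapped a library of the short set at the same dose. The difference was 15.4 ± 0.770 percentage points with 250 µM 4sU, 19.4 ± 0.913 with 500 µM and 18.3 ± 3.57 with 1 mM (SD, 2 libraries each). Without library 1 of 1 mM the last value was 20.8 points. Among minus-strand regions alone (617 long and 793 short) it was 14.4, 19.0 and 17.6 points.

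**Figure D1:**
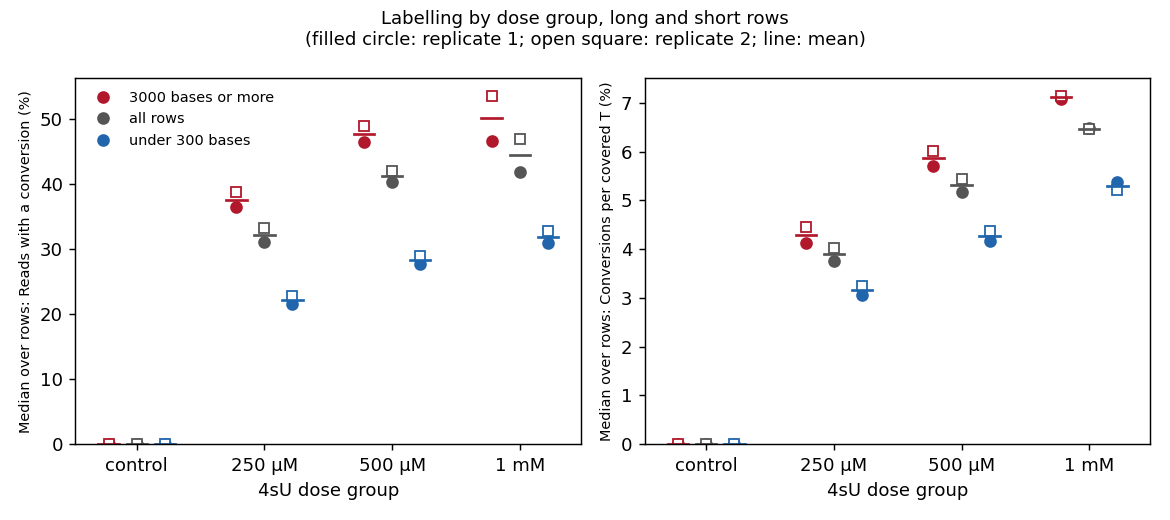
Median labelled share (left, percent of reads with a conversion) and median conversions per covered T (right, percent) over long 3' UTRs, all regions with enough reads and short 3' UTRs, by dose group; each point is 1 library and each line the mean of 2. Long 3' UTRs lie above short ones in all 6 labelled libraries, and all medians are 0 in the controls.

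The control libraries gave almost no converted reads. In the long 3' UTRs, 62 of 846650 reads of control library 1 and 42 of 551404 reads of control library 2 had a conversion, or 0.00732% (95% exact binomial interval 0.00561% to 0.00939%) and 0.00762% (0.00549% to 0.0103%). These intervals cover counting error only, because the reads carry no molecular identifiers. In short 3' UTRs the control shares were 0.0122% and 0.0123%.

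The mean labelled share of the long 3' UTRs rose little between 500 µM and 1 mM, while the conversions within reads went on rising. The step from 47.8% to 50.1% was smaller than the SD of 4.91 between the 1 mM libraries, which differed in covered T. Library 1 of 1 mM, with 19.0 T per read in long 3' UTRs, lay between the 500 µM libraries at 46.7%. Library 2, with 23.0 T per read, lay above both at 53.6%. The part of covered T in the small step was not tested. The median conversion rate, conversions per covered T, was 4.30% ± 0.228, 5.87% ± 0.214 and 7.11% ± 0.0491 (SD, n = 2), with no overlap between doses. Short 3' UTRs had rates of 3.15%, 4.28% and 5.30%. The ratio of the long to the short median rate was between 1.32 and 1.38 in all 6 labelled libraries, a narrow range against a ratio of labelled shares between 1.51 and 1.70.

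Member by member, the share went up with dose about as often as in any region. In 1066 of 1635 long 3' UTRs (65.2%), both 1 mM libraries lay above both 250 µM libraries in labelled share, and over all 10409 regions this was 65.8%. In conversion rate this held for 1452 long 3' UTRs (88.8%), for 83.4% of all regions and for 72.8% of the short ones. The median ratio of the 1 mM share to the 250 µM share was 1.31 in long and 1.42 in short 3' UTRs. The ratio of rates was 1.62 and 1.65.

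Placement relative to other regions was stable across libraries for many long 3' UTRs. The labelled share lay above the median of all regions in 6 of 6 labelled libraries for 691 long 3' UTRs (42.3%), against 29.9% of all regions and 10.6% of short ones. It lay below that median in 6 of 6 for 273 (16.7%), against 30.9% of all regions and 55.5% of short ones. In conversion rate, 560 long 3' UTRs (34.3%) were above in 6 of 6, against 22.3% of all regions and 8.68% of short ones.

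A test of each region gave the same split. Converted and other reads were set against each other in 1 fit over the 6 labelled libraries (edgeR's quasi-likelihood test, Benjamini-Hochberg adjusted p under 0.05 over 17206 regions), where 0 stands for the share of all reads together. Of the 1635 long 3' UTRs, 1127 were more labelled and 179 less labelled than that, against a background of 39.1% higher and 24.7% lower, 63.8% in all, over all regions tested. Of the 2143 short 3' UTRs, 539 were higher and 975 lower. The split rests on where 0 is set. With scaling over converted and other reads together, 817 long 3' UTRs were higher and 324 lower, against 25.3% and 35.0%, 60.4% in all, of all regions and 285 and 1342 short ones. With the reads of the library as the size of both columns, so that a region with equal converted and other reads sits at 0, 247 long 3' UTRs (15.1%) were higher and 725 (44.3%) lower, against 7.88% and 54.1% of all regions. These scalings moved the median of all regions from 0.32 to -0.13 and to -0.76 on the log2 scale, and the long 3' UTRs' median from 0.81 to 0.36 and to -0.28, so that the long median stayed above that of all regions under each.

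The share of reads with a conversion depends on how many T a read covers, and reads of long 3' UTRs covered more T. The median T content was 30.4% of bases in long and 24.1% in short 3' UTRs. The median over regions of covered T per read was 24.2 in long and 15.3 in short ones. Covered T also went with region length, and regions under 100 bases had medians of 21.9% T and 10.8 covered T per read. For regions of 300 to 500 bases these were 26.3% and 20.6. The parts of T content and of region length in covered T were not tested. Among regions with 20 to 26 covered T per read, which were 723 long and 402 short, the labelled share was 36% against 32.0% at 250 µM, 46.4% against 41.3% at 500 µM and 49.0% against 44.8% at 1 mM. The difference there was 3.99 ± 0.789, 5.10 ± 0.658 and 4.18 ± 2.07 points (SD, 2 libraries each), against 15.4, 19.4 and 18.3 points over all long and short 3' UTRs. In the conversion rate these same regions had 4.22% against 3.75%, 5.79% against 4.98% and 7.06% against 6.14%. Covered T was not equal within this range, with medians of 23.2 T per read in the long and 22.1 in the short 3' UTRs. The part of that difference in the remaining gap was not tested.

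The gap in labelled share was smaller still where reads covered most T, and there the medians were 28.4 T per read in long and 28.5 in short 3' UTRs. With 26 or more T per read (590 long and 154 short), the labelled share was 46.3% against 43.7% at 250 µM, 56.9% against 55.1% at 500 µM and 58.7% against 57.5% at 1 mM. Within libraries the difference was 2.59 ± 1.12, 1.80 ± 0.275 and 1.25 ± 0.390 points (SD, 2 libraries each). The conversion rate in these regions was 6.32% against 5.78% at 500 µM and 7.47% against 6.78% at 1 mM, a difference of 0.534 ± 0.0120 and 0.696 ± 0.0903 points. With fewer than 20 T per read, 322 long 3' UTRs had a share of 34.9% at 1 mM and 1587 short ones 27.4%. Covered T still differed there, with medians of 17.8 T per read in the long and 13.3 in the short 3' UTRs.

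**Figure D2:**
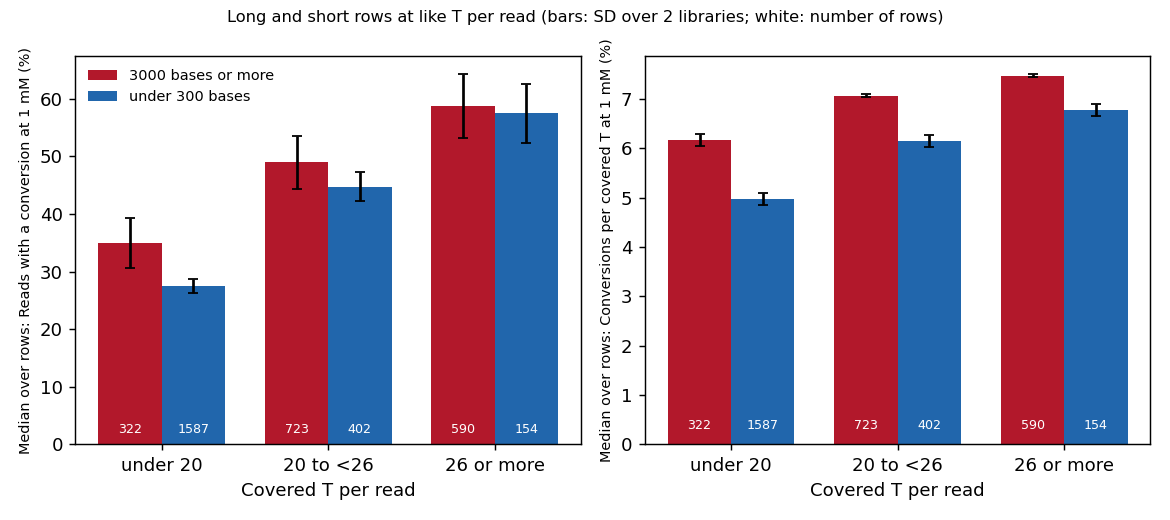
Median labelled share (left) and median conversions per covered T (right) at 1 mM of long and short 3' UTRs, by the T that a read covers; bars give the SD over 2 libraries and white numbers the regions in each bar. At 20 to 26 T per read the shares are 49.0% and 44.8%. Long and short regions still differ in covered T in that bin, with medians of 23.2 and 22.1, and more so under 20 T per read, with 17.8 and 13.3.

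Across all lengths the labelled share went up steeply with length below 1000 bases and more slowly above, with little change from 3000 bases on. At 1 mM the median was 26.5% for regions under 100 bases, 33.4% for 100 to 300, 40.7% for 300 to 500 and 44.9% for 500 to 1000. It was 48.0% for 1000 to 2000 bases, 49.1% for 2000 to 3000, and between 49.6% and 50.3% in the 4 length bins of the long 3' UTRs. Covered T per read followed the same course, from 10.8 under 100 bases to 23.7 at 1000 to 2000 and 23.8 to 24.9 in the long bins. The 207 regions just inside the bound (3000 to under 3200 bases) had 38%, 47.9% and 50.3% at the 3 doses, and the 216 just outside (2800 to under 3000) had 34.9%, 45.6% and 48.2%.

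**Figure D3:**
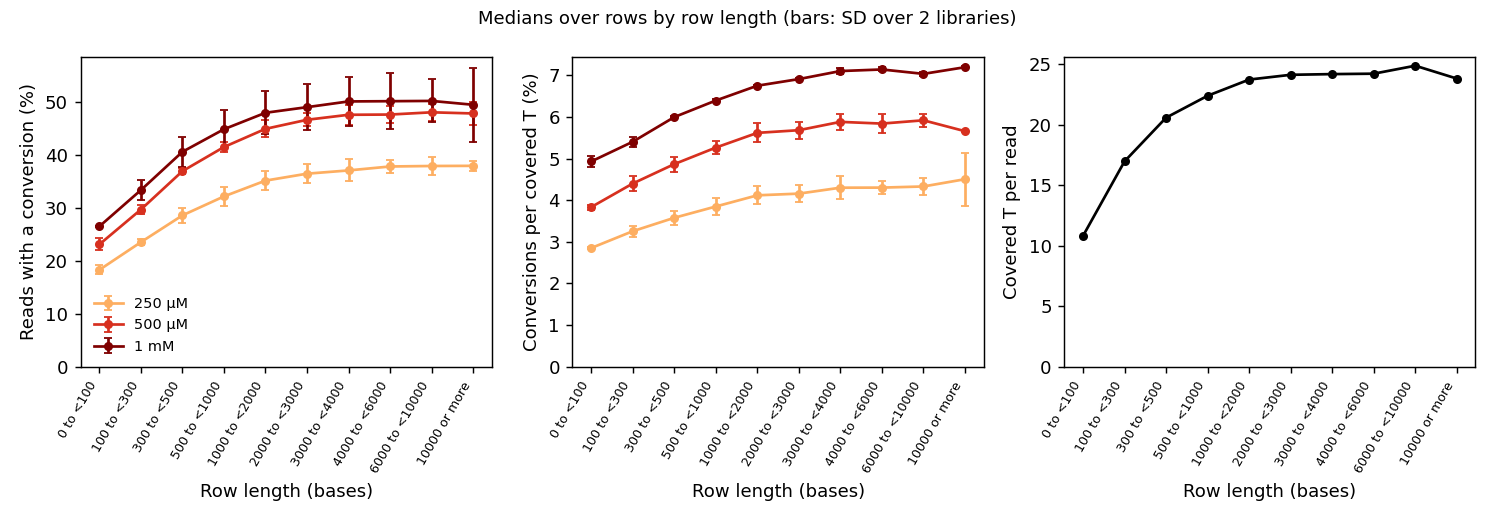
Median labelled share, median conversions per covered T and median covered T per read by region length, over all 10409 regions; lines are doses and bars the SD over 2 libraries. The curves climb most below 1000 bases, and the 1 mM share is 49.1% at 2000 to 3000 bases and 49.6% to 50.3% in the 4 bins from 3000 bases on.

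Among the long 3' UTRs themselves, longer regions were not ranked higher or lower in labelling. Spearman's rho between length and the labelled share at 1 mM was -0.01 over the 1635 regions, which share the same libraries. With covered T per read it was 0.71, with the T content of the region 0.38 and with reads 0.18. The shares at 250 µM and 1 mM ranked the regions alike, with a rho of 0.78.

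The most abundant long and short 3' UTRs differed more than the classes as a whole. The 79 long 3' UTRs with at least 10000 reads had a median labelled share of 41.6%, 50.7% and 52.9% at the 3 doses. The 113 short ones with as many reads had 10.6%, 16.0% and 17.9%. Both sets covered a like number of T per read as their class (23.2 and 16.4).

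Long 3' UTRs spread widely around their median. At 1 mM the middle 50% lay between 40.3% and 57.7%, the 5th percentile at 19.1% and the 95th at 66.6%. There were 86 (5.26%) under 20% and 1 at 80% or more. Among short 3' UTRs, 24.9% were under 20%.

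**Figure D4:**
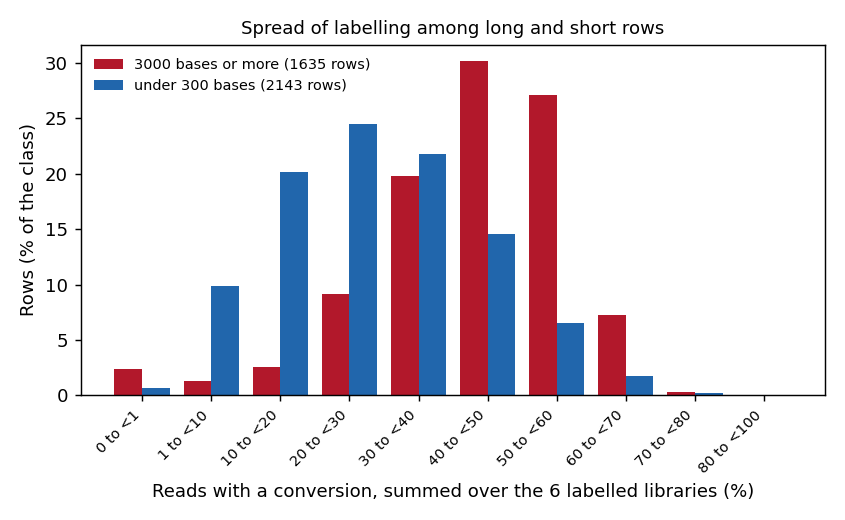
Long and short 3' UTRs by labelled share summed over the 6 labelled libraries, as a percent of each class. Long 3' UTRs centre on 40% to 60%, short ones on 20% to 30%, and 39 long 3' UTRs (2.39%) form a separate group under 1%.

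A small set of long 3' UTRs showed no labelling at any dose. In 31 of 1635 (1.90%) no read of the 6 labelled libraries had a conversion, and 39 (2.39%) were under 1%, whereas 21 lay between 1% and 10%. Among short 3' UTRs 11 (0.513%) had no converted read, and over all regions 133 (1.28%). The 31 were picked for this count of 0, and together they held 9250 reads in the labelled libraries. Their reads covered a median of 22 T against 24.2 in all long 3' UTRs, and each had 186 to 579 labelled-library reads. On the plus strand lay 24 of the 31 (77.4%), and of the 133 in all classes 115 (86.5%). They took 0.203% and 0.420% of long 3' UTR reads in the controls and 0.146% to 0.372% in the labelled libraries.

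Examples of these unlabelled regions include some of the longest members. The limit given with each is 3 counts over that region's reads alone. It covers counting error only and does not allow for the picking of regions by their count of 0. The plus-strand region chr4:12597388-12671843, 74456 bases long, had 0 converted of 339 labelled-library reads, which allows up to 0.885%. The plus-strand region chr13:89938223-89990492, 52270 bases long, had 0 of 262 (up to 1.15%). The plus-strand region chr12:104439590-104444018 had 0 of 516 (up to 0.581%), with only 2 multimapped reads. For chr17:23174918-23184632 on the plus strand it was 0 of 565 (up to 0.531%), with 49.4% multimapped reads. For chr1:167981111-167986300 on the minus strand it was 0 of 561 (up to 0.535%), with 91.4% multimapped reads and only 6.86 covered T per read. Leaving out the 39 regions under 1% gave medians of 38.1%, 48.1% and 50.6% for the other 1596.

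The other 3 of the 5 longest regions were labelled. The longest, chr10:83201787-83324369 on the plus strand with 122583 bases, had labelled shares of 31.9% and 35.0% at 250 µM, 43.8% and 44.3% at 500 µM, and 43.1% and 54.3% at 1 mM. Its conversion rate went from 4.88% ± 0.128 to 8.05% ± 0.705 (SD, n = 2) between 250 µM and 1 mM. The minus-strand region chr1:97534043-97573439 had 41.1%, 38.6%, 48.8%, 50.5%, 56.9% and 66.0% in the same order of libraries. The plus-strand region chr16:43439108-43462965 had a lower 22%, 24%, 30.6%, 29.4%, 31.8% and 36.8%, below the long median in all 6 libraries.

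The 8 long 3' UTRs with the most reads ranged from poorly to well labelled. The minus-strand region chr6:127102125-127107297 (186848 reads) had labelled shares of 44.5% and 46.1% at 250 µM, 51.3% and 50.4% at 500 µM, and 48.3% and 55.8% at 1 mM. It was above the share of all reads by a log2 odds of 1.05 (SE 0.05, edgeR adjusted p = 7.77e-113). The plus-strand region chr4:119991549-119995242 had 50.9%, 53.2%, 58.5%, 59.0%, 43.4% and 63.0%, and the plus-strand region chr6:67260944-67274720, 13777 bases long, 39.9%, 42.7%, 50.5%, 53.2%, 53.2% and 57.9%. Both were also above the share of all reads (log2 odds 1.36 and 1.06, edgeR adjusted p = 4.69e-138 and 6.26e-88). Over the alternatives the highest adjusted p was 0.662 for chr6:127102125-127107297, 0.000695 for chr4:119991549-119995242 and 0.783 for chr6:67260944-67274720, since shares near 50% sit near 0 when equal converted and other reads are the zero point. In chr4:119991549-119995242 the 2 libraries of 1 mM lay on both sides of all the others.

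A further 3 of the 8 with the most reads had mean labelled shares between 7.42% and 10.8% at 1 mM. The minus-strand region chr4:3831334-3834500 had labelled shares of 4.5%, 5.0%, 9.1%, 8.8%, 10.6% and 11.0%, the minus-strand region chr7:117703595-117708322 had 6.2%, 6.5%, 9.6%, 9.4%, 9.7% and 10.4%, and the plus-strand region chr14:24541975-24545926 had 4.2%, 5.5%, 7.7%, 7.1%, 6.3% and 8.6%. Their log2 odds were -2.48, -2.34 and -2.78 (SE 0.05, 0.05 and 0.06, edgeR adjusted p computed as 0 in each). Reads in the first 2 covered only 7.5 and 6.5 T. The conversion rates of the 3 regions, counted per covered T, were also low at 1 mM, at 1.43% ± 0.0903, 1.38% ± 0.129 and 1.43% ± 0.214 (SD, n = 2). The median was 7.11% over long 3' UTRs and 6.17% over those with fewer than 20 T per read. This rate is not free of covered T, with a Spearman's rho of 0.32 between the 2 among long 3' UTRs. All 3 had more reads in library 1 of 1 mM (39280, 29331 and 32331) than in any other library, where they had 8554 to 21113.

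The remaining 2 of the 8 lay between. The plus-strand region chr15:82247110-82252084 had the most reads of all (213257), of which 213230 were multimapped, so its reads may belong to a near-identical copy. Its labelled share was 18.4%, 19.8%, 26.9%, 27.1%, 24.0% and 29.6%. The minus-strand region chr1:86272441-86278341 had 34.7%, 35.6%, 41.4%, 40.8%, 41.2% and 48.6%. Its call against all reads (log2 odds 0.52, edgeR adjusted p = 5.82e-24) was lost with scaling over both kinds of reads (0.07, adjusted p = 0.23).

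The highest shares came from regions whose reads covered many T. Among the 770 long 3' UTRs with at least 100 reads in every library, the plus-strand region chr13:51302998-51306530 had the highest mean at 1 mM, with 70.6% and 79.5%, after 55.1% and 45.6% at 250 µM and 64.7% and 66.5% at 500 µM, and 667 of its 1527 reads were multimapped. The plus-strand region chr10:96454506-96458671, with 34375 reads of which 21265 were multimapped, had 57.0%, 58.4%, 71.2%, 72.3%, 72.8% and 76.0%. The plus-strand region chr3:88075951-88079393 had 48.9%, 52.2%, 68.2%, 74.2%, 71.4% and 76.5%. In all 3 the libraries of 250 µM lay below those of both higher doses, but the 3 were picked for their share at 1 mM. Both 1 mM libraries lay above both 250 µM libraries in 65.8% of all regions. Their reads covered 27.7, 33.6 and 31.4 T, and their conversion rates at 1 mM were 8.92%, 9.08% and 9.26%. The next were the plus-strand regions chr11:109287313-109292195 and chr1:127719342-127723537 and the minus-strand region chr2:121025319-121028900, with means of 72.2%, 72.0% and 71.9%.

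The 6 lowest of the 770 at 1 mM were the 3 poorly labelled regions above and 3 with fewer reads. The minus-strand region chr7:45139882-45143260 had 7.9%, 12.1%, 9.0%, 4.7%, 9.3% and 10.7%, with no order by dose. The plus-strand region chr11:48691159-48694795 had 6.5%, 9.6%, 9.1%, 8.0%, 14.4% and 10.8%, and the plus-strand region chr7:126295175-126298970 had 7.9%, 10.5%, 13.5%, 14.9%, 12.9% and 16.2%. The log2 odds against all reads were -2.28, -2.20 and -1.74 (edgeR adjusted p = 2.05e-44, 4.2e-57 and 3.94e-73).

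By the test rather than the mean at 1 mM, 4 regions were furthest above all reads. The minus-strand region chr14:7669823-7673604 had 63.6%, 72.8%, 74.1%, 76.5%, 69.2% and 79.2% and a log2 odds of 2.50 (SE 0.14, edgeR adjusted p = 1.16e-71). The plus-strand regions chr3:30670700-30674022 and chr9:59832315-59836149 and the minus-strand region chr2:131894416-131898588 had log2 odds of 2.40, 2.37 and 2.38. In chr9:59832315-59836149 the mean share was 71.9% ± 3.01 at 250 µM and 70.3% ± 17.2 at 1 mM (SD, n = 2). Its 1 mM libraries lay too far apart to tell whether its share changed with dose.

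Few long 3' UTRs changed their labelling between 250 µM and 1 mM by more than regions in general. The edgeR test of converted against other reads, 1 mM against 250 µM, called 8 higher and 8 lower, 0.979% of the 1635 against 0.657% of all regions tested (0.314% higher and 0.343% lower). Scaling over both kinds of reads together gave 8 higher and 7 lower, with 0.651% of all regions called (0.314% higher and 0.337% lower). With the reads of the library as the size of both columns, which keeps the general rise with dose, it called 368 long 3' UTRs (22.5%) higher and 0 lower, against 14.4% of all regions higher and 0.0349% lower. Most of the 16 calls were lost when either library of 250 µM was left out, and most stayed when either library of 1 mM was left out. In data simulated with a fixed spread, not estimated from these libraries, the test recovered 4.00% of regions changed by 2-fold. At that spread it missed most changes of that size.

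The regions whose labelling rose most with dose also differed in total reads. The minus-strand region chr5:34331231-34334335 had labelled shares of 4.4% and 9.3% at 250 µM, 20.0% and 12.8% at 500 µM, and 26.4% and 32.5% at 1 mM (log2 1.82, SE 0.37, edgeR adjusted p = 0.000787). Its CPM (reads scaled to library size by TMM) were 15.6 and 175 in the controls, 82.6 and 71.4 at 250 µM, 35.2 and 32.1 at 500 µM, and 28.9 and 50.9 at 1 mM, with control library 2 far above control library 1. The plus-strand region chr5:64986502-64990244 went from 17.2% and 17.9% over 32.5% and 36.3% to 41.1% and 49.3% (log2 1.24, SE 0.29, adjusted p = 0.0083). Its CPM were 27.5 and 288 in the controls, 139 and 95.1 at 250 µM, and 26.8 and 50.4 at 1 mM. The plus-strand region chr11:77346307-77351046 went from 18.2% and 17.8% over 38.6% and 31.6% to 40.2% and 42.7% (log2 0.98, adjusted p = 0.00279), with 94.5 and 599 CPM in the controls. The plus-strand region chr6:120459446-120464520 went from 27.2% and 20.7% over 34.0% and 39.1% to 52.8% and 52.2% (log2 1.09, adjusted p = 0.000412). In all 4, control library 2 held more CPM than control library 1, and 250 µM more than 1 mM; the part of total reads in the change of labelling was not tested.

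The largest falls relative to other regions were smaller in percent. The plus-strand region chr12:98243776-98247299 had labelled shares of 58.5% and 54.0% at 250 µM, 51.3% and 53.1% at 500 µM, and 42.6% and 38.1% at 1 mM (log2 -1.60, SE 0.39, edgeR adjusted p = 0.0113). The minus-strand region chr11:23686847-23692264 had 52.2%, 53.2%, 50.8%, 52.9%, 42.0% and 53.1% (log2 -1.03, SE 0.17, adjusted p = 1.58e-06), with a CPM of 773 in library 1 of 1 mM against 153 to 389 in the other libraries. Its conversion rate did not fall, at 6.31% ± 0.0152, 7.41% ± 0.645 and 8.43% ± 0.406 (SD, n = 2). The plus-strand region chrY:90801720-90804949 had 50.0%, 36.6%, 41.3%, 50.0%, 31.6% and 27.5% (log2 -1.67, adjusted p = 0.0113), and 1035 of its 1048 reads were multimapped. The minus-strand region chr12:98753064-98756608 was lower by log2 -1.17 (adjusted p = 0.045).

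Long 3' UTRs took between 13.9% and 16.3% of the reads of regions with enough reads in all 8 libraries. In controls this was 15.7% ± 0.795, and with 4sU it was 14.8% ± 0.198, 14.5% ± 0.0825 and 14.3% ± 0.592 from the lowest to the highest dose (SD, n = 2 libraries). The gap between controls and 250 µM was close to the spread between the controls, and control library 1, at 15.1%, lay above all 6 labelled libraries (13.9% to 15.0%). Short 3' UTRs made up 22.2% ± 1.24, 22.3% ± 0.304, 22.6% ± 0.0123 and 24.7% ± 1.46. In bulk samples fewer molecules per cell and fewer cells that express them cannot be told apart.

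Against control, the edgeR test called 0 long 3' UTRs at 250 µM (0.0626% of all regions were called). At an unadjusted p under 0.05 there were 56 (3.43%, against 6.35% of all regions), and DESeq2 called 0, against 0.214% of all regions. At 500 µM it called 1 higher and 1 lower (background 0.251%, of which 0.245% higher and 0.00522% lower). At 1 mM it called 15 higher and 13 lower, 1.71% of the 1635 against 2.08% of all regions (1.42% higher and 0.663% lower) and 69 of the 2143 short 3' UTRs. The median log2 fold change at 1 mM was -0.06 for long 3' UTRs, 0.15 for short ones and -0.04 for all regions.

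The calls at 1 mM depended on which libraries entered the fit. Without library 1 of 1 mM the test called 1 long 3' UTR (0.207% of all regions), and without library 2 of 1 mM 38 higher and 31 lower (5.55% of all regions called). Without control library 1 it called 137 higher and 227 lower, against 8.48% and 7.99% of all regions, and without control library 2 it called 23 higher and 26 lower, against 1.00% and 0.960%. Of the 28 calls, most were lost without library 1 of 1 mM or without control library 2. Most stayed without library 2 of 1 mM, and all stayed without control library 1.

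One region was called at both 500 µM and 1 mM with more reads than control. The plus-strand region chr15:37285837-37289156 had 0.732 and 2.02 CPM in the controls, 5.85 and 7.57 at 250 µM, 12.4 and 17.1 at 500 µM, and 11.9 and 19.2 at 1 mM. The values of the labelled libraries all lay above the controls. It was higher at 500 µM (log2 3.46, SE 0.57, edgeR adjusted p = 0.0254) and at 1 mM (log2 3.53, SE 0.57, adjusted p = 0.00957), on 4 and 8 reads in the controls, and 93 of its 336 reads were multimapped. Over the alternatives it was called in 7 of 11 at 500 µM, with adjusted p from 2.0e-05 to 0.32, and in 9 of 11 at 1 mM, from 5.4e-06 to 0.055. Its labelled share was 28.4% ± 6.39 (SD, n = 2) at 1 mM, under the median of long 3' UTRs.

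Other rises at 1 mM started from low levels. The plus-strand region chr3:126393678-126398110 had 8.06 and 4.8 CPM in the controls, 13.4 and 9.46 at 250 µM, 11.2 and 14.9 at 500 µM, and 29.5 and 31.4 at 1 mM (log2 2.22, SE 0.41, edgeR adjusted p = 0.0161). The plus-strand region chr16:90017642-90021313 and the minus-strand region chr1:51505021-51508245 were higher by log2 1.98 and 1.93 (adjusted p = 0.0372 and 0.0241). In both, each labelled library lay above both controls.

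Of the 13 regions that were lower at 1 mM, 5 are described here, and in each control library 2 lay above control library 1. The plus-strand region chr13:55461542-55466138 had 44.1 and 93.2 CPM in the controls, 39.2 and 40.7 at 250 µM, 27.6 and 27.5 at 500 µM, and 11.0 and 14.4 at 1 mM (log2 -2.44, SE 0.39, edgeR adjusted p = 0.00862). Its labelled share was 23.6%, 23.3%, 34.2%, 49.1%, 51.6% and 57.6%. The minus-strand region chr14:6034301-6039296 had 149 and 301 CPM in the controls, 103 at 250 µM in both libraries, 65.5 and 58.1 at 500 µM, and 44.6 and 54.3 at 1 mM, and was lower at 500 µM (log2 -1.87, adjusted p = 0.0444) and at 1 mM (log2 -2.19, adjusted p = 0.00965). The minus-strand region chr2:131831335-131838303 and the plus-strand regions chr8:3503038-3506600 and chr5:105756639-105760884 were lower at 1 mM by log2 -3.57, -2.89 and -2.47 (adjusted p = 0.038, 0.0409 and 0.0149). In these 3, control library 2 held 85.4, 103 and 65.2 CPM and control library 1 held 6.96, 13.2 and 26.

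Many long regions contain shorter annotated regions, and a few owed their reads to one of them. Of the 1635, 986 held at least 1 inner region with reads. In 19 (1.16%, with 4.36% of the reads of long 3' UTRs) an inner region under 300 bases held at least 90% of the reads. In 111 (12.9% of the reads) an inner region under 3000 bases did, and 1524 had none. The 19 had median labelled shares of 30.3%, 39.3% and 42.7%. In chr7:117703595-117708322 an inner region of 36 bases held nearly all reads of the labelled libraries, 96540 against 554 elsewhere.

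In 117 long 3' UTRs the reads could be split between a short inner region at the same 5' end (median 393 bases) and the rest of the long region. This compares messages that end early with messages that extend further, as far as reads lie near the ends. Some inner regions were very short, such as the 38 bases at chr3:122060047-122064381, so covered T per read may differ between the inner region and the rest. The labelled share was a median of 45.8% in the inner region and 48.6% in the rest, and the median difference was 3.27 points, with quartiles of -3.90 and 12. The rest was higher in 6 of 6 labelled libraries in 31 loci and lower in 6 of 6 in 21. Per covered T, over the 116 loci with covered T in both, the rest was higher in 6 of 6 in 22 and lower in 15.

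**Figure D5:**
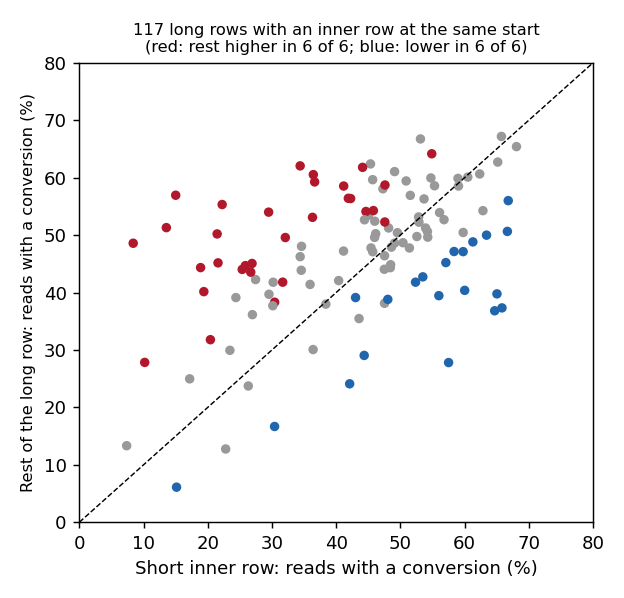
Labelled share of a short inner region (x axis, percent, mean of 6 labelled libraries) against the rest of the long 3' UTR (y axis) for 117 loci; red points are higher in the rest in 6 of 6 libraries (31), blue points lower in 6 of 6 (21), grey points neither. Points lie on both sides of the dashed line of equality.

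The loci with the most reads went in both directions. In chr7:117703595-117708322 the share was 8.39% in the inner region and 48.6% in the rest. That inner region is the very short one described above, with nearly all the reads, and the reads of the long region covered few T. The part of covered T in this gap was not tested. In chr6:67260944-67274720 it was 47.6% and 58.7%, although per covered T the rest was lower (6.47% against 7.23%) in 6 of 6 libraries. In chr14:24541975-24545926 it was 15.1% and 6.11%, and in chr4:119991549-119995242 63.4% and 50.0%, each lower in the rest in 6 of 6 libraries. These 4 loci were picked after their values were seen, for their reads.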

How the data were processed

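The deposited tables hold 1 line per annotated 3' UTR with read counts, counts of reads with a conversion, covered T, conversions and multimapped reads, made with slamdunk 0.4.3 on a GENCODE M33 annotation, per the file headers. Conversion rates, deposited as a fraction, and deposited CPM served only as checks and to recover library totals. The submitters' processing notes list mm10, an older build than the one GENCODE M33 belongs to; positions are as the files give them, counted from 1. Mapping settings and the conversions needed per converted read were not stated in any source used here. Members and lists were chosen with earlier results of these data known.

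Counts were tested with edgeR 4.0.16 (quasi-likelihood, filterByExpr, TMM, all dose groups in 1 fit; R 4.3.3), with DESeq2 1.42.0 as an alternative. The test of converted against other reads had a term per library and separate TMM scaling of both kinds of reads. Its 0 is then the share of all reads, not the typical region as first planned, so joint scaling was added. Total reads were scaled to TMM CPM. In simulated data the total-read test at 1 mM recovered 72.0% of 200 regions changed 2-fold among 18157. The simulated spread between libraries was a fixed setting, not estimated from these libraries. The real control and 1 mM libraries were uneven (chi-square per degree of freedom 33.5 and 27.8), so the recovery in them is not known. Regions were named if among the 8 with most reads, the 5 longest, the 6 highest and lowest at 1 mM, or the 4 largest non-overlapping calls in each direction of a test; a few so chosen are not described. Gene lists, markers and sequence motifs were not analysed here. Other alternatives left out libraries, filters, multimapped regions and ties.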

Additional observations from a re-analysis of the deposited data

How the results depend on the processing

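Counts of long 3' UTRs are given as higher and lower. The percent of all regions called is given first, starting with total reads. With DESeq2 it was 0.882% at 500 µM (59.2% of calls higher) and 5.48% at 1 mM (56.6%). Without the low count filter it was 0.624% (35.8%) and 2.31% (48.5%), over 55962 regions. The replicate block called 1.77% at 1 mM. Without multimapped regions, converted against other reads called 22.6% higher and 25.2% lower. For 1 mM against 250 µM, DESeq2 called 0.744% and the fit without the filter 0.265%. Total reads at 250 µM (0 and 0) gave 1 and 0 without the low count filter, where 0.0786% of all regions were called. The counts moved when either control library was left out. With 1 library left out, the median log2 fold change of long 3' UTRs was between -0.09 and -0.003. At 500 µM (1 and 1) the counts were 4 and 7 with DESeq2, 1 and 0 with the replicate block, 2 and 34 without the filter, 0 and 0 without multimapped regions and with only the 2 groups compared, and 0 to 53 and 0 to 139 with 1 library left out. At 1 mM (15 and 13) they were 36 and 49 with DESeq2, 8 lower with the replicate block, 27 and 77 without the filter, 2 and 0 without multimapped regions (72 long 3' UTRs left), 0 and 1 with only the 2 groups, and 1 to 137 and 0 to 227 with 1 library left out. Converted against other reads (1127 and 179) gave 247 and 725 with sizes from all reads, 324 lower with joint scaling (chosen after seeing the data), and 39 and 12 without multimapped regions. With 1 library left out, the median log2 odds of long 3' UTRs was between 0.78 and 0.83. For 1 mM against 250 µM (8 and 8) there were 13 lower with DESeq2, 368 and 0 with sizes from all reads, 4 lower without the filter, 0 and 0 without multimapped regions, and 1 to 14 and 1 to 23 with 1 library left out.

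The long minus short difference in labelled share kept its sign in every alternative run. At 250 µM, 500 µM and 1 mM it was 1.14, 1.59 and 1.82 conversions per 100 covered T. At 250 µM it was 17.5 points from summed reads, 17.2 with 1000 reads, 13.8 with other length bounds, 13.1 with grouping within classes and 12.3 without multimapped regions; at 500 µM the last 3 were 17.2, 16.5 and 15.5. Alternatives chosen after seeing the data gave 3.99, 5.10 and 4.18 points at 20 to 26 T per read, 4.17, 5.44 and 4.10 for the minus strand at that T, and 14.4 at 250 µM for the minus strand. With 1 library left out it ranged from 14.9 to 16.0, 18.8 to 20.0 and 15.7 to 20.8 points.

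Replicate numbers did not pair the libraries: deviations of same-numbered libraries had correlations of -0.15 to 0.03. The replicate block kept 17 of the 28 calls of total reads at 1 mM, 1301 of 1306 calls of converted against other reads, and 16 of 16 for the dose comparison. Depth limits the regions near 300 reads in all 8 libraries.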

Other observations

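Long 3' UTRs were spread unevenly over the chromosomes. They made up 22.7% of the 665 regions with enough reads on chromosome 1, and 19.9% on chromosome 3, against 11.0% on chromosome 19.

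Few long 3' UTRs overlapped a region on the other strand. This was so for 146 (8.93%), and in 23 of these the opposite region held as many reads or more. Minus-strand long 3' UTRs had labelled shares of 39.3%, 49.8% and 52.3% at the 3 doses and plus-strand ones 36.5%, 46.5% and 48.8%, and over all regions the strands stood at 35.1%, 45% and 48.0% against 30.0%, 38.7% and 42.1%.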
